A study of Rattus norvegicus with 6 samples.

Results

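The D-type cyclins Ccnd1, Ccnd2 and Ccnd3, their kinase Cdk4 and the CDK inhibitors Cdkn1a (p21) and Cdkn1b (p27) were followed in primary cardiac fibroblast cultures treated with pertussis toxin (PTX). Every probe set whose platform annotation names exactly 1 gene, and that gene being 1 of these 6, was taken. All 6 genes, of the 4736 that the array names in this way, were found, on 15 of its 8740 probe sets: 5 for Ccnd1, 2 for Ccnd2, 4 for Ccnd3, 1 for Cdk4, 2 for Cdkn1a and 1 for Cdkn1b. The cultures came from the ventricles of rats aged 1 to 2 days. The strain label reads Sprague-Dawley for 5 samples and SD for PTX replicate 3. Controls (n = 3) were given water and the treated cultures (n = 3) PTX, both for 24 h, and the RNA of each culture was read on a separate 1-colour Affymetrix array. The sources used here state no dose of PTX. They also do not say that the cultures of a group are separate isolations, so the p-values speak only of the spread between these arrays, and that spread may be technical.

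D-type cyclins are the part of the cell cycle machinery that growth factors control most directly. They bind CDK4 or CDK6, and the active kinase phosphorylates the retinoblastoma protein, which releases E2F transcription factors and lets a cell leave G1. The inhibitors p21 and p27 bind cyclin-CDK complexes and restrain mainly CDK2, and p21 is also a target of p53. PTX ADP-ribosylates the alpha subunits of Gi and Go proteins and uncouples them from their receptors, which cuts the mitogenic signalling of Gi-coupled receptors to Ras and ERK and lifts the inhibition of adenylyl cyclase. Ccnd1 transcription is a known target of the ERK pathway in fibroblasts, and the comparison shows transcripts of G1 control after 24 h with this toxin. The arrays do not read the block of Gi signalling itself.

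Promoter sequences are shown for Ccnd3 and Cdk4, the D-type cyclin and the kinase for which the RefSeq promoter table of GRCr8 has an entry, so that the letters bound by the cAMP-responsive factor CREB and by Myc can be seen beside the transcripts measured. Each window runs from 250 bases before to 50 bases after the table's transcription start, and 4 of the 6 genes have one (Ccnd3, Cdk4, Cdkn1a and Cdkn1b). Both strands were searched for the core of the cAMP response element, TGACG, for the full element, TGACGTCA, which contains that core, and for the E-box CACGTG. Matches are in capitals.
Ccnd3, GRCr8 chr9:20897826-20898125, minus strand: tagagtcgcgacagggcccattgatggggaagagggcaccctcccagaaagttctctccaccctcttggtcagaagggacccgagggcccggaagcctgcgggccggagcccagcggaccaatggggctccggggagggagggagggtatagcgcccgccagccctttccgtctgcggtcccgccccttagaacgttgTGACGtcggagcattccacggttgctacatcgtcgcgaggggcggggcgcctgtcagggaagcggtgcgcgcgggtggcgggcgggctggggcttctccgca
Cdk4, GRCr8 chr7:64771203-64771502, plus strand: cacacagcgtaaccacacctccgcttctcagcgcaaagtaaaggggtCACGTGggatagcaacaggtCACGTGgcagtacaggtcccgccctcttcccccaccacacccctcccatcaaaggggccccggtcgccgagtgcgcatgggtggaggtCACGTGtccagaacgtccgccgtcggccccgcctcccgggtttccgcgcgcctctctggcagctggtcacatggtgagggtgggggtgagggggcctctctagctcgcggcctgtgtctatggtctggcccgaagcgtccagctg
The Ccnd3 window holds 1 TGACG, beginning 52 bases before the start. The Cdk4 window holds 3 E-boxes, beginning 203, 183 and 95 bases before the start. The windows of Cdkn1a and Cdkn1b hold 1 TGACG each, and none of the 4 holds the full element. Of all 33469 windows of this length in the table, 21.2% hold TGACG, 1.83% the full element, 6.42% an E-box, and 0.0568% an E-box at least 3 times. A match describes the letters only and is not a binding site.

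The arrays had median signals of 63.1 to 68.85. Control replicate 1 stood apart, with correlations of 0.952 to 0.960 to the other arrays across all probe sets, against 0.978 to 0.985 among those 5, so the member results are given with and without it, and those of other genes where it moves them most. Among marker lists, all 10 fibroblast markers were tested and 0 passed (limma; 5 at an unadjusted p under 0.05). Of all 3148 genes tested on their brightest probe set, 134 were lower and 258 higher at that level. The fibroblast markers had a summed signal of 83812 to 100000 in controls and 87819 to 91926 with PTX. Of 10 cardiomyocyte markers 9 were tested, all with negative changes and 0 calls (1 at an unadjusted p under 0.05). Their median log2 change was -0.27, or -0.11 without control replicate 1. The sum of the 10 was 263660 to 350757 in controls and 229681 to 260664 with PTX. The sum of the 8 measured macrophage and leukocyte markers was 3477 to 3532 in controls and 4227 to 5388 with PTX. Of these, 5 were tested and 0 passed (limma; 2 at an unadjusted p under 0.05). Their changes were mixed, with 2 of the 5 negative and a median of 0.15. Smooth muscle markers summed to 22708 to 24928 and 22931 to 23855, endothelial ones (3 measured, 1 tested) to 118 to 163 and 91 to 150, and Schwann and neuronal ones (2 measured, 0 tested) to 16 to 66 and 23 to 36. In such cultures fewer cells of a type and less RNA per cell cannot be told apart, and the part of these cell types in the results below was not tested.

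No member probe set passed an adjusted p of 0.05 on the 6 arrays. The 3 tested probe sets whose 95% intervals lay below 0 were of Ccnd1 and Ccnd2: Ccnd1 stood at 63.2% of control on one probe set and 71.7% on its brightest, and Ccnd2 at 67.5% on one of its probe sets. Of the 15 probe sets, 13 were bright enough to be tested. The other 95% intervals among these, for the remaining probe sets of Ccnd1 and Ccnd2 and those of Ccnd3, Cdk4 and both inhibitors, include no change. Of the 13, 12 had negative log2 changes (92.3%), with a median of -0.26. Over all 5244 tested probe sets 52.9% were negative, with a median of -0.02. Most of the 13 are not named rc_, and the 2960 tested probe sets of that class had a median of -0.10. Several of the 13 also read the same gene. On the brightest probe set of each gene 5 of the 6 members were negative, with a median of -0.13, beside 51.7% and -0.01 for all 3148 tested genes. By limma with Benjamini-Hochberg adjustment, 0 members and 0.0763% of all tested probe sets passed (4 of 5244, all higher). At an unadjusted p under 0.05, 3 of the 13 were lower (23.1%) and 0 higher, beside 4.61% lower and 7.97% higher among all. The same 3 had groups that did not overlap, all with PTX below control, beside 10.6% of all tested probe sets. Of these 3, 2 come from 1 GenBank record of Ccnd1, so they are not separate evidence. Fold changes are on the scale of log2(signal + 16), which understates changes of low signals.

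**Figure D1:**
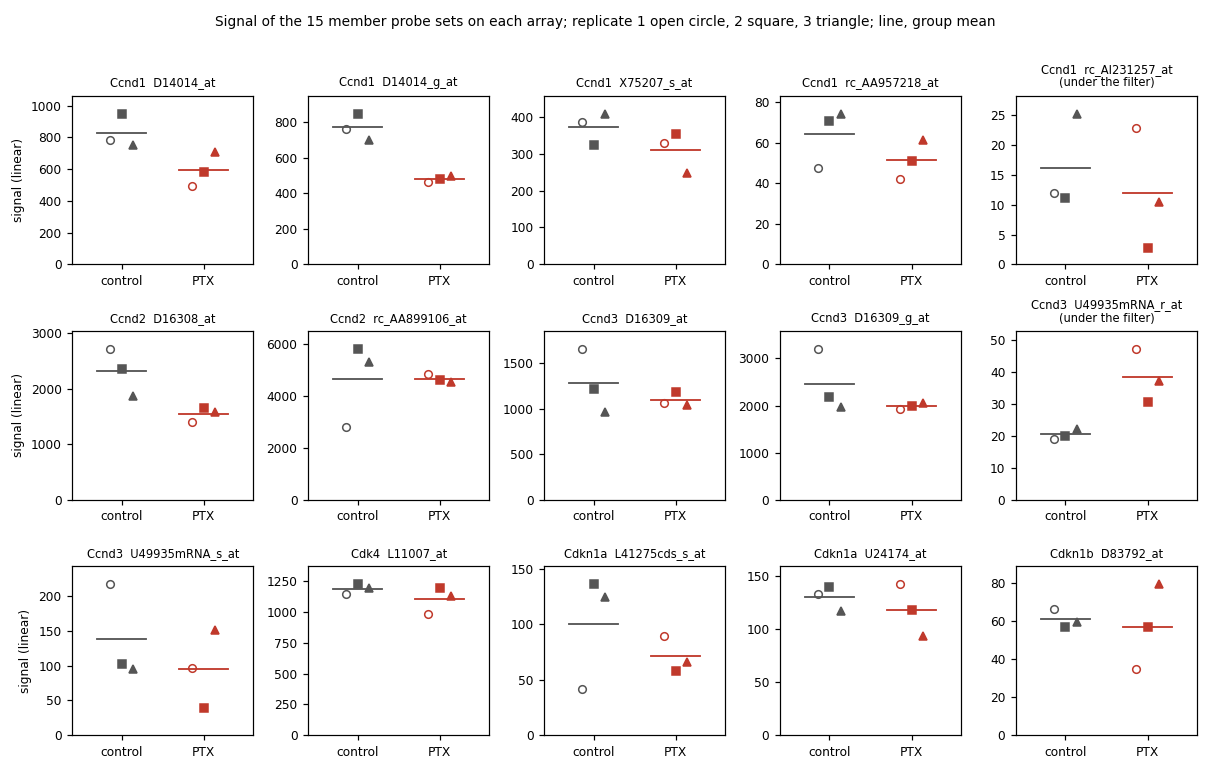
Linear signal of each of the 15 member probe sets on the 6 arrays (grey, control; red, PTX; lines, group means; each panel has its own axis from 0). For D14014_at and D14014_g_at of Ccnd1 and D16308_at of Ccnd2 all 3 PTX arrays lie below all 3 controls, and for rc_AA899106_at of Ccnd2 control replicate 1 lies far below the other controls.

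Ccnd1 encodes cyclin D1, the D-type cyclin best known as a sensor of mitogens. Its probe set D14014_g_at read 763.1, 848.1 and 701.1 in control replicates 1 to 3 and 462.3, 482.8 and 494.3 with PTX. All 3 PTX arrays lay below all 3 controls, and the PTX values were close to each other, with an SD of 16.2 beside 73.8 in the controls (n = 3 each). The log2 change was -0.66 ± 0.13 (SE; 95% interval -0.97 to -0.36; unadjusted p = 0.00113; limma adjusted p = 0.184, or 0.0240 to 0.682 over the alternatives tried). By p-value it ranked 29 among all 5244 tested probe sets and 7 among those that were lower.

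The brightest Ccnd1 probe set, D14014_at, read 784.9, 950 and 753.6 in the controls and 494.5, 578.9 and 706.8 with PTX. The groups again did not overlap, but PTX replicate 3 came close to control replicate 3. The log2 change was -0.48 ± 0.17 (SE; 95% interval -0.88 to -0.08; limma adjusted p = 0.351). D14014_at and D14014_g_at are annotated to the same GenBank record, and they differed most on PTX replicate 3, which read 706.8 on the first and 494.3 on the second.

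The remaining Ccnd1 probe sets had groups that overlapped. X75207_s_at read 386.1, 325.3 and 409.4 in the controls and 328.5, 355.3 and 248.3 with PTX, a log2 change of -0.26 ± 0.18 (SE; limma adjusted p = 0.523). The suffix _s_at marks probes shared by several similar transcripts, so this probe set need not read Ccnd1 alone. The same limit holds for U49935mRNA_s_at of Ccnd3 and L41275cds_s_at of Cdkn1a below. The dimmer rc_AA957218_at read 47.5, 70.7 and 74.5, and then 42.1, 50.9 and 61.6, with a log2 change of -0.24 ± 0.24 (SE; limma adjusted p = 0.653). Its low control value is that of replicate 1, and without that array its PTX values lay below both controls. The rc_AI231257_at probe set, with signals of 2.7 to 25.3, was under the filter on low signals, and without a filter it had a log2 change of -0.24 (limma adjusted p = 0.805). All 5 Ccnd1 probe sets thus had negative changes, of which those above the filter ran from -0.66 to -0.24.

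Ccnd2 encodes cyclin D2, and its 2 probe sets differed in the size of their change. D16308_at read 2712.5, 2348.6 and 1875.5 in the controls and 1396.2, 1643.7 and 1583.6 with PTX. Every PTX array lay below every control, and the log2 change was -0.57 ± 0.16 (SE; 95% interval -0.94 to -0.19; limma adjusted p = 0.277, unadjusted p = 0.00854). The brighter rc_AA899106_at read 2807.7, 5817.4 and 5333.8 in the controls and 4844.7, 4604.8 and 4558.7 with PTX. Here control replicate 1 lay far below the other controls (a log2 difference of -0.98). The change over all arrays was 0.07 ± 0.26 (SE; 95% interval -0.52 to 0.67; limma adjusted p = 0.908), so it has no clear direction.

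Without control replicate 1 the probe sets of Ccnd2 had the same sign, -0.45 ± 0.13 for D16308_at and -0.25 ± 0.10 for rc_AA899106_at (SE), and neither passed (limma adjusted p = 0.120 and 0.243). On rc_AA899106_at all 3 PTX arrays then lay below both controls, 5817.4 and 5333.8. The other 4 tested probe sets whose names begin with rc_AA899 had log2 differences of -2.89 to 0.40 between control replicate 1 and the other controls, with a median of -0.92, and 3 of the 4 were lower there. The 2960 tested probe sets not named rc_ had a median of 0.17, and D16308_at, which is one of them, had 0.37. The part of these shifts in the disagreement of the Ccnd2 probe sets was not tested.

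Ccnd3 encodes cyclin D3, the third member of the family. Its brightest probe set, D16309_g_at, read 3201.4, 2184.7 and 1969.6 in the controls and 1930.6, 1990.9 and 2053.7 with PTX. The PTX arrays formed a narrow band around control replicate 3, and the high control value was that of replicate 1. The log2 change was -0.27 ± 0.19 (SE; limma adjusted p = 0.534), and without control replicate 1 it was -0.06 ± 0.10 (95% interval -0.28 to 0.17; limma adjusted p = 0.829). D16309_at, from the same record, had -0.19 ± 0.20 over all arrays and 0.01 ± 0.13 without that array (SE; limma adjusted p = 0.669 and 0.980), so its sign turned without that array.

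The other Ccnd3 probe sets were dim and did not point one way. U49935mRNA_s_at read 217.3, 102.7 and 94.7 in the controls and 97, 38.4 and 152.1 with PTX, with a log2 change of -0.52 ± 0.45 (SE; limma adjusted p = 0.605), or -0.18 without control replicate 1. U49935mRNA_r_at read 19.2, 20.1 and 22.2 in the controls and 47.3, 30.7 and 37.3 with PTX. It was the only member with all PTX arrays above all controls, but its signals lie under the filter. Without a filter, over 8740 probe sets, the log2 change was 0.57 ± 0.24 (SE; limma adjusted p = 0.497).

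Cdk4 encodes the kinase that the D-type cyclins activate. Its probe set L11007_at read 1144.6, 1225.9 and 1200.3 in the controls and 985.1, 1199.6 and 1132.2 with PTX. The groups overlapped and the controls were close together, with an SD of 41.6 around a mean of 1190 (n = 3). The log2 change was -0.11 ± 0.13 (SE; limma adjusted p = 0.704), and its 95% interval of -0.41 to 0.19 was, with that of D14014_g_at of Ccnd1, the narrowest of the members.

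Cdkn1a encodes p21, which stops the cycle after DNA damage and on entry into quiescence or senescence. Its brightest probe set, U24174_at, read 132.4, 139.5 and 116.9 in the controls and 141.9, 118 and 93 with PTX, with overlapping groups and a log2 change of -0.14 ± 0.19 (SE; 95% interval -0.58 to 0.31; limma adjusted p = 0.744). L41275cds_s_at read 41.3, 136.1 and 124.8 in the controls and 89.8, 58.3 and 65.6 with PTX. Control replicate 1 was again the value apart, the lowest of all 6 here. The log2 change was -0.31 ± 0.38 (SE; limma adjusted p = 0.710) and, without that array, -0.76 ± 0.22 (SE; 95% interval -1.25 to -0.28; limma adjusted p = 0.123), with PTX below both controls. The U24174_at probe set had -0.12 without the same array, so the probe sets of Cdkn1a differ in size there.

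Cdkn1b encodes p27, which accumulates in cells deprived of mitogens, largely through slower degradation of the protein. Its probe set D83792_at read 66.2, 56.8 and 59.7 in the controls and 35, 56.7 and 79.2 with PTX. The PTX arrays lay on both sides of the controls, and their SD was 22.1 beside 4.81. The log2 change was -0.12 ± 0.27 (SE; limma adjusted p = 0.849). Its 95% interval, -0.74 to 0.50, leaves room for changes in either direction as large as that of Ccnd1 on its brightest probe set.

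**Figure D2:**
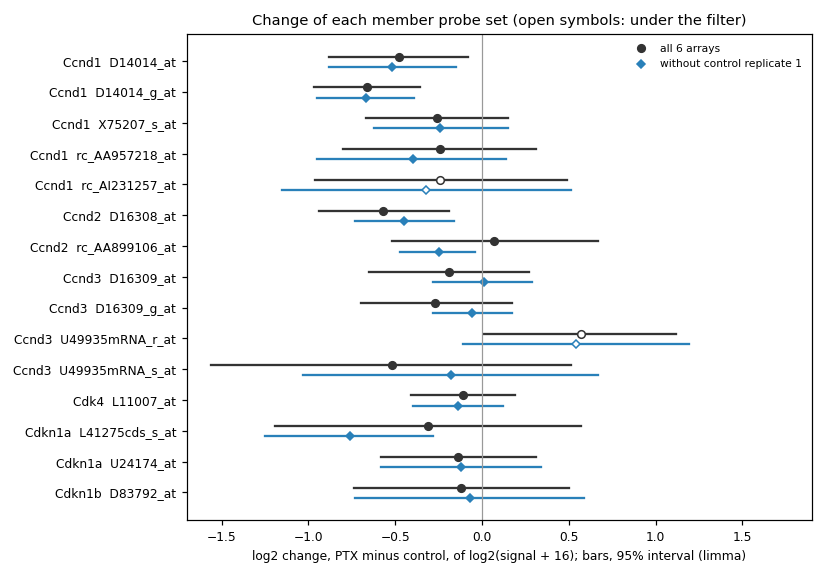
Log2 change (PTX minus control, of log2(signal + 16)) of the 15 member probe sets with limma's 95% interval, over all 6 arrays (black) and without control replicate 1 (blue); open symbols are under the filter and come from a fit with no filter. With all arrays the intervals of D14014_at, D14014_g_at and D16308_at lie below 0, and without control replicate 1 those of rc_AA899106_at and L41275cds_s_at do as well.

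Without control replicate 1, D14014_g_at of Ccnd1 passed (log2 change -0.67 ± 0.13, SE; limma adjusted p = 0.0244). It was the 1 member called of 13, beside 2.19% of all 5244 tested probe sets, or 0.343% in the lower direction. The brightest Ccnd1 probe set had -0.52 and did not pass (limma adjusted p = 0.158). In that fit 5 of the 13 members were lower at an unadjusted p under 0.05 (38.5%, beside 5.78% of all) and 7 had PTX arrays below both controls (53.8%, beside 15.9% of all). Of the 13, 12 were again negative, beside 52.3% of all. Their median was -0.24, beside -0.01 for all and -0.05 for those not named rc_. With each PTX array left out in turn no probe set on the array passed (limma; 0 calls each, and 361 to 381 at an unadjusted p under 0.05). The change of D14014_g_at stayed between -0.73 and -0.59 with each array left out, and that of D16308_at of Ccnd2 between -0.71 and -0.45.

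**Figure D3:**
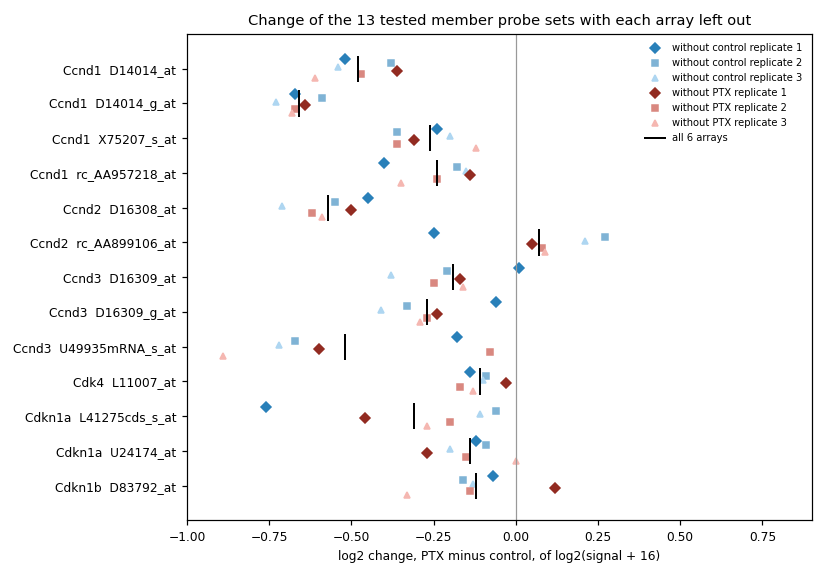
Log2 change of the 13 tested member probe sets with each array left out (symbols) and with all 6 (black bars). The Ccnd1 probe sets and D16308_at of Ccnd2 are negative throughout, while rc_AA899106_at of Ccnd2 runs from -0.25 to 0.27 and D83792_at of Cdkn1b from -0.33 to 0.12.

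Whether members differed from each other was tested on the difference of their log2 values within each array, on the brightest probe set of each gene. Over 5 pairs an exact two-sided permutation test was used, whose smallest possible p is 0.1 with 3 arrays against 3. No pair could therefore pass 0.05, and the test cannot decide whether members differed. The change of Ccnd1 was lower than that of Cdk4 by a log2 difference of -0.37 (exact permutation p = 0.1, adjusted over the 5 pairs 0.5). The groups did not overlap but all but met, at -0.66 in control replicate 3 and -0.67 in PTX replicate 3. The difference was -0.55 against Ccnd2 (exact permutation p = 0.2), -0.34 against Cdkn1a (p = 0.4) and -0.21 against Ccnd3 (p = 0.5). These sizes rest on single arrays, and that against Ccnd2 also on the choice of probe set. Ccnd2 changed by 0.07 on its brightest probe set and by -0.57 on D16308_at, beside -0.48 for Ccnd1 on its brightest. Without control replicate 1 the difference was -0.26 against Ccnd2, -0.46 against Ccnd3, -0.38 against Cdk4 and -0.39 against Cdkn1a. With each array left out in turn, that against Ccnd3 ran from -0.46 to -0.05 (-0.05, -0.14 and -0.12 without control replicate 2, control replicate 3 and PTX replicate 1, and -0.32 without PTX replicate 3). That against Cdkn1a ran from -0.61 without PTX replicate 3 to -0.09 without PTX replicate 1. Between Cdkn1a and Cdkn1b it was -0.02 (exact permutation p = 1). These data therefore do not show that Ccnd1 changed more than the other members, nor that they changed alike.

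The genes with the pattern most like that of Ccnd1 over the 6 arrays were found by the root mean square difference of log2 values centred on each gene's mean, among 3147 other genes on their brightest probe sets. Psat1, an enzyme of serine synthesis, was nearest, at 0.061, where the median gene was at 0.371. It read 421.1, 508.8 and 443.3 in the controls and 265.7, 323.1 and 360.4 with PTX (log2 change -0.52, limma adjusted p = 0.303). Limk2, a kinase that acts on cofilin, followed at 0.108 with a log2 change of -0.32, and Tcea2, a transcription elongation factor, at 0.114 with -0.40 (limma adjusted p = 0.449 and 0.450). For all 3 genes the PTX arrays lay below the controls, which follows in part from choosing them by likeness to Ccnd1 on these arrays. In a search without control replicate 1, added after seeing the data, Psat1 was next to nearest, at 0.066, while Tcea2 ranked 12 and Limk2 14, and the others among the nearest 3 were Or2c1 and Arf3. No other member had a brightest probe set whose groups did not overlap, so none was searched.

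The rest of the G1 machinery was read through lists, each gene on its brightest probe set. No gene of any list passed with limma, and over all 3148 tested genes 2 passed on that probe set, 51.7% were negative and the median was -0.01. Of 6 tested G1 cyclins and CDKs other than the members 5 were negative, with a median of -0.21 and 0 at an unadjusted p under 0.05. Ccne1, cyclin E1, which activates CDK2 late in G1, read 186.8, 135.5 and 115.5 in the controls and 94.1, 115.2 and 105.1 with PTX. Its groups all but met, at 115.5 in control replicate 3 and 115.2 in PTX replicate 2, and its log2 change of -0.40 (limma adjusted p = 0.444) was -0.23 without control replicate 1 and -0.08 on its other tested probe set. Cdk2 had -0.49 and Ccng1, a cyclin induced by p53, -0.20, both with overlapping groups (limma adjusted p = 0.470 and 0.513). Without control replicate 1 they had -0.23 and -0.16, and the list's median was -0.15, with 6 of 6 negative.

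Among the CDK inhibitors that are not members 2 were tested, and both had negative changes, with 0 at an unadjusted p under 0.05. Cdkn1c, p57, had signals of 71.0 ± 25.8 and 45.8 ± 2.86 (SD, n = 3 each), a log2 change of -0.45, or -0.23 without control replicate 1. Cdkn2b, p15, an inhibitor of CDK4 and CDK6, had -0.33, or -0.16 without that array (limma adjusted p = 0.467 and 0.521 over all arrays). The median of the pair went from -0.39 to -0.19. Of the RB and E2F genes 2 were tested. E2f5, a repressive E2F, read 31.8, 33.7 and 30.5 in the controls and 68, 44.4 and 80.6 with PTX, all PTX arrays above all controls (log2 change 0.72, unadjusted p = 0.0228, limma adjusted p = 0.347). Rbl2, the pocket protein p130, had 0.05 (limma adjusted p = 0.900).

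Genes of S phase and mitosis, which act after the G1 step that the D-type cyclins control, lay on both sides of 0. Of 21 tested genes 8 were negative and 13 positive, with a median of 0.02, and 1 was lower and 3 higher at an unadjusted p under 0.05. Among all 3148 tested genes 134 were lower and 258 higher at that level. Pcna, the sliding clamp of DNA polymerase and an E2F target, read 2618.3, 2508.2 and 2407.7 in the controls and 1758.6, 2060.2 and 2118.1 with PTX. Its groups did not overlap (log2 change -0.35, limma adjusted p = 0.359). Stmn1, a microtubule regulator, and Plk1, a mitotic kinase, had all PTX arrays above all controls, with log2 changes of 0.61 and 0.38 (limma adjusted p = 0.277 and 0.372).

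The p53 targets had 3 of 4 tested genes negative, with a median of -0.11, or 4 of 4 and -0.16 without control replicate 1. Gadd45a, a stress-induced growth arrest gene, read 1963.8, 1864.5 and 1608 in the controls and 1357.9, 1359.1 and 1434.4 with PTX, with no overlap (log2 change -0.38, unadjusted p = 0.0181, the list's 1 gene under 0.05; limma adjusted p = 0.324), and its other tested probe sets had -0.35 to -0.14. Mdm2, the ubiquitin ligase of p53, had 0.27 (0.10 and -0.27 on its other tested probe sets), or -0.16 without control replicate 1, which read 145.5 where the other controls read 381.9 and 371.9. Ccng1, also in this list, is given above.

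Upstream of Ccnd1, 9 of 14 tested mitogenic transcription factors were negative, with a median of -0.09 and 0 at an unadjusted p under 0.05. Without control replicate 1, 7 of 14 were negative, with a median of -0.02. Fos, a subunit of AP-1, had 303.0 ± 52.0 in the controls and 227.5 ± 36.9 with PTX (SD, n = 3 each; log2 change -0.39, limma adjusted p = 0.428). Stat5b (-0.46) and Atf3 (-0.38) had overlapping groups. These 3 had -0.26, -0.25 and -0.21 without control replicate 1. In the ERK and PI3K pathway 11 of 18 tested genes were negative, with a median of -0.13 (-0.06 without that array). At an unadjusted p under 0.05, 1 was lower and 2 higher, beside 134 lower and 258 higher of all 3148 tested genes.

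The gene with the smallest p of that pathway was Eif4ebp1, which encodes an inhibitor of cap-dependent translation. It read 5721.7, 4960.6 and 4032.5 in the controls and 3420.9, 3425.3 and 3221.9 with PTX, a log2 change of -0.53 (limma adjusted p = 0.274), and its other tested probe sets had -0.51 and -0.13. Eif4e, the cap-binding protein that it inhibits, had 0.54 (limma adjusted p = 0.375), or 0.33 without control replicate 1. Akt1, a kinase downstream of PI3K, had 0.40 on rc_AA799664_at (limma adjusted p = 0.275), and -0.13 on its other tested probe set. None of the 10 listed genes for turnover of cyclin D and p27 was named by a probe set with 1 gene.

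**Figure D4:**
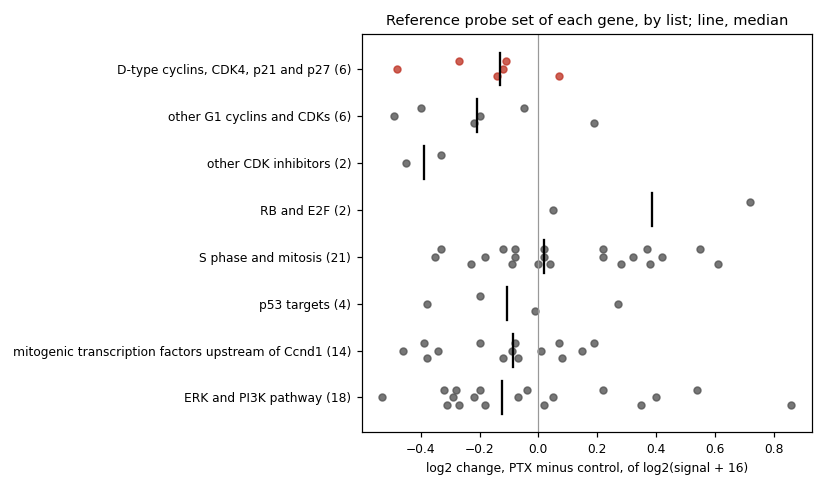
Log2 change (PTX minus control) of the brightest probe set of each gene, for the 6 members (red, median -0.13) and the tested genes of 7 lists (grey; number of genes in brackets; bars, medians). The medians of the lists run from -0.39 for 2 other CDK inhibitors to 0.38 for 2 RB and E2F genes, and that of 21 S phase and mitosis genes is 0.02.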

How the data were processed

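The authors deposited linear signal intensities per probe set, made with GCOS per the submitters' processing notes; the sources used here give neither its version nor a scaling target or detection calls. The 2% trimmed means of the arrays were alike (493 to 495), so no further scaling was applied. Genes come from the platform annotation (7006 probe sets with 1 symbol, 308 with several, 1426 with none). For 6985 of the probe sets with 1 symbol the gene was found in RefSeq's GRCr8 gene table, whose symbol was then used. Signals were analysed as log2(signal + 16). Probe sets under the 40th percentile of the mean log2 signal were left out. The remaining 5244 were tested with limma 3.58.1 in R 4.3.3 (eBayes with an intensity trend, two-sided, Benjamini-Hochberg over all tested probe sets, threshold 0.05). In simulated data with the same spread on every array this procedure recovered 72.5% of 2-fold and 97.8% of 4-fold changes. Smaller changes, and an array that stands apart, were not simulated. The brightest probe set stood for a gene in pairs and lists. Named list genes are the up to 3 with the smallest p per list. The members and lists were chosen with earlier results of these data known.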

Additional observations from a re-analysis of the deposited data

How the results depend on the processing

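The number of member probe sets called was 1 in place of 0 with array quality weights, where D14014_g_at of Ccnd1 had -0.70 (adjusted p = 0.0240), and it ran from 0 to 1 with each array left out. The brightest Ccnd1 probe set kept its direction and did not pass under the alternatives tried, with changes of -0.61 to -0.36. With array quality weights the sign turned for rc_AA899106_at of Ccnd2 (-0.20). With each array left out it turned for that probe set without control replicate 1 (-0.25 to 0.27 over the arrays), for D16309_at of Ccnd3 without control replicate 1 (-0.38 to 0.01) and for D83792_at of Cdkn1b without PTX replicate 1 (-0.33 to 0.12). The pair of Cdkn1a and Cdkn1b had 0.01 with a pseudocount of 1, and -0.38 to 0.34 with each array left out. The causes were not tested.

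Over all probe sets, the 4 calls became 2 with a pseudocount of 1 or with quantile normalization, 7 with a pseudocount of 64, 9 with robust variances, 8 without the rc_AA799 and rc_AA800 probe sets, and 81 with array quality weights. With limma's eBayes without a trend there were 0 (615 at an unadjusted p under 0.05), and with each array left out 0 to 115. Same-numbered samples had deviations from their group means that correlated at -0.093, -0.105 and -0.008, and different-numbered ones at -0.048 to 0.1. With 3 arrays per group such values cannot exclude pairing, and the labels do not say that the numbers pair samples. With the replicate number as a block 0 probe sets passed with limma (552 at an unadjusted p under 0.05), and D14014_g_at had an adjusted p of 0.385. The low signals of Cdkn1b, of L41275cds_s_at of Cdkn1a and of the dim Ccnd1 and Ccnd3 probe sets limit what can be seen for them. No detection calls were used.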
